A study of Homo sapiens with 24 samples.

Results

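The transcriptomes of 2 small cell lung cancer lines, DMS454 and H1694 (NCI-H1694), were set against those of 2 non-small cell lung cancer lines, A549 and H1299 (NCI-H1299), in a series on HEPACAM2, a cell adhesion molecule of the immunoglobulin superfamily. Of the series' 24 RNA sequencing libraries, 18 entered: all 6 of DMS454, all 6 of H1694, the 3 control libraries of A549 and the 3 control libraries of H1299. Each small cell line had 3 libraries titled CRISPR, with the genotype HEPACAM2 knockdown, and 3 titled control, with the genotype WT. The libraries of A549 and H1299 used here were titled control, genotype WT, and their 6 libraries overexpressing HEPACAM2 were kept for an alternative. The sources used here do not describe the control constructs or the guides, or say whether an edited line is 1 clone.

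The 4 tables were joined on the gene identifier, values were rescaled to CPM (reads scaled to the same fixed total in every library) over the 18538 identifiers that all 4 tables list, and each line was represented by the mean of log2(CPM + 1) over its libraries. A gene was placed above when both small cell lines exceeded both non-small cell lines, and below when both were under both. The gap of such a gene is the distance, on the log2(CPM + 1) scale, between the nearest small cell line and the nearest non-small cell line. The line is the unit, with 2 a side, so that 16199 genes with at least 1 CPM in at least 1 line could be described but hardly tested. With 2 lines against 2, an exact permutation test of one gene cannot go below a two-sided p of 0.333.

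Small cell lung cancer is a neuroendocrine tumour: its cells store peptide hormones and amines in dense core granules, use the vesicle machinery of neurons and often depend on lineage transcription factors such as NEUROD1. The repressor REST silences many neuronal genes in other tissues, and active Notch signalling opposes the neuroendocrine state. Non-small cell lines commonly grow attached, with YAP and TAZ, the coactivators of the Hippo pathway, driving genes of adhesion, matrix and the cytoskeleton. A549 derives from a lung adenocarcinoma and H1299 from a lymph node metastasis of a non-small cell carcinoma.

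Libraries held 15652553 to 31770858 reads recovered from the deposited values. The shared identifiers took 94.5% to 96.6% of reads in the small cell libraries, against 98.2% to 99.5% in the non-small cell libraries. The median SD of a gene between libraries of 1 group lay between 0.07 and 0.13 on the log2 scale. A gene absent from the table of A549 or H1299 is called unlisted below. Those tables hold 21306 and 20707 identifiers of 60668, none with a mean under 1.13 and 1.47 normalized counts over a table's 6 libraries, so genes that are silent in a non-small cell line tend to be missing from the join. Of the identifiers outside the join, 605 had at least 1 CPM, 166 at least 10 CPM and 13 at least 100 CPM in both small cell lines. DMS454 came from Sigma and the other 3 lines from ATCC, so that supplier differs within the small cell lines, and the labels do not say which medium each line had. Tumour type goes with the rule by which low genes were left out of the tables, and these cannot be told apart. Each line is a table of its own, so levels set across lines rest on this rescaling and not on a joint normalization by the authors. In bulk RNA, fewer cells of a type and less RNA per cell cannot be told apart.

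The marker genes followed the labels for the most part. Of 16 neuroendocrine markers, 15 had at least 10 CPM in DMS454 and 12 in H1694, against 4 in A549, where 9 are listed, and 1 in H1299, where 11 are listed. Their summed level ran from 11375 to 12671 CPM in DMS454 and from 3277 to 3718 CPM in H1694, against 639 to 699 CPM in A549 and 513 to 548 CPM in H1299. Most of the sum in the non-small cell lines was UCHL1, a neuronal deubiquitinase, which separated the types little, with 853 ± 94 CPM in DMS454 and 518 ± 28.9 CPM in H1694, against 572 ± 30.7 CPM in A549 and 501 ± 17.6 CPM in H1299. Of 9 non-neuroendocrine markers, 4 reached 10 CPM in DMS454 and 0 in H1694, against 9 in A549 and 8 in H1299. Markers of other cells were low: the summed level of 12 leukocyte markers was 1.03 to 7.37 CPM in the small cell libraries, against 1.83 to 6.10 CPM in the non-small cell libraries, and PTPRC, the common leukocyte antigen, had 0.0127 CPM in DMS454 and 0.00544 CPM in H1694 and was unlisted for both others. Of 7 endothelium markers 1 reached 10 CPM, VE-cadherin CDH5 in H1694, at 146 ± 11.7 CPM, against 0.152 ± 0.0864 CPM in A549. Of 8 fibroblast markers, the serine protease FAP reached 12.1 ± 2.53 CPM in DMS454 and the collagen chain COL1A2 50.8 ± 7.71 CPM in H1694, and both are unlisted for A549 and H1299. Of 7 lung epithelium markers, 0 reached 10 CPM in DMS454 and 1 in H1694, against 2 in A549, where 4 are listed, and 0 in H1299, where 2 are listed. Their summed level was 24.4 to 29.3 CPM in H1694 and 87.4 to 109.8 CPM in A549. Among them, the markers of surfactant-producing alveolar cells, SFTPB and SFTPC, stayed under 1 CPM in every line that lists them. Throughout, ± is the SD over the libraries of a line, 6 for each small cell line and 3 for each non-small cell line.

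Both small cell lines lay above both others for 4226 genes (26.1% of those tested) and below for 2412 (14.9%). A gap of at least 1, which is a factor of 2 on the CPM + 1 scale, was found for 749 genes above (4.62%) and 537 below (3.32%). No gene passed limma's moderated test on the 4 line means at an adjusted p of 0.05, where the lowest adjusted p was 0.130, shared by HEPACAM2, SCG3, VIM, ANXA1, CCND1 and CD44. An unadjusted p under 0.05 was found for 1367 genes (8.44%), 778 higher and 589 lower. On reads summed per line, edgeR called 0 genes (1316 unadjusted) and DESeq2 called 916, 415 higher and 501 lower (2291 unadjusted). The text therefore gives gaps as descriptions of these 4 lines, and no gene is said to differ between the tumour types at large.

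The split between above and below depended on the scaling. The median difference of all genes tested, small cell minus non-small cell, was 0.20 with CPM and -0.01 with TMM factors, a shift of 0.21. With TMM, 3148 genes lay above and 3396 below, so that the share of genes above among all that lay on 1 side was 63.7% with CPM and 48.1% with TMM. Among genes with a gap of at least 1 it was 58.2% with CPM (749 and 537) and 44.4% with TMM, where 561 genes (3.46%) lay above and 702 (4.33%) below. No gene with such a gap turned to the other side under TMM. With a shift of 0.21 beside gaps of at least 1, this was largely fixed by the choice of genes. The limit of 1 separates near neighbours: FAM133A, with a gap of 1.0001, was just inside above and RP9, with 0.999, just outside, while MTHFD1L, with 1.003, was just inside below and FANCD2, with 0.999, just outside.

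The small cell lines were not close to each other. Across the genes tested, DMS454 and H1694 differed by a median of 0.72 (absolute log2 difference), and 1233 genes stood at least 3 apart on the log2 scale. The 4 pairs of a small cell with a non-small cell line had medians of 0.72 to 0.78, while A549 and H1299 differed by 0.59. The correlation of line means across genes was 0.771 for DMS454 with H1694, 0.761 to 0.774 for the 4 mixed pairs and 0.856 for A549 with H1299. These are descriptions across genes, which are not independent, and the 6 pairs share lines. The distances cover only genes that all 4 tables list. Genes silent in A549 or H1299 tend to be missing, while genes silent in a small cell line stay in. The pairs are thus not measured on equal terms, and how far this moved the distances was not tested. Within the genes tested, the small cell lines shared a limited set of genes with wide gaps, and their median difference from each other was as large as that of the mixed pairs.

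**Figure D1:**
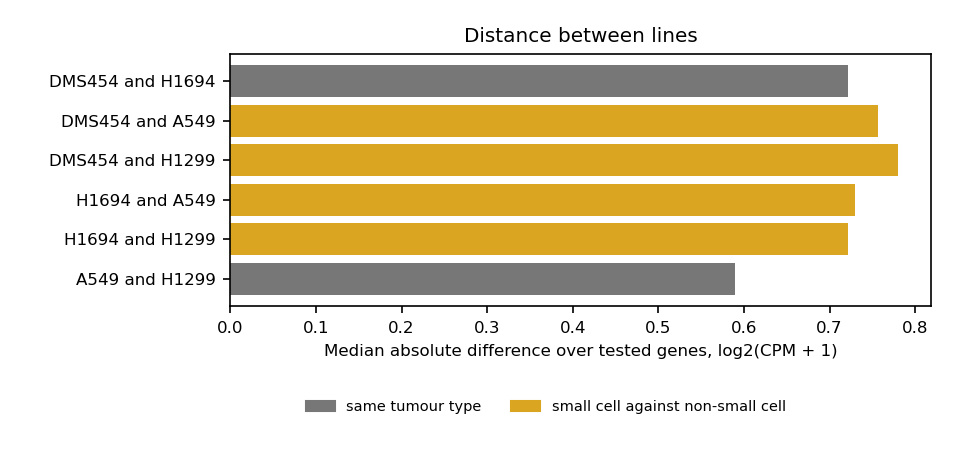
Median absolute difference between 2 lines over the genes tested, in log2(CPM + 1) units, for the 6 pairs of lines, with pairs of the same tumour type in grey and mixed pairs in yellow. The pair of small cell lines (0.72) lies as far apart as the mixed pairs (0.72 to 0.78), and A549 and H1299 are the closest pair (0.59). Genes unlisted for A549 or H1299 are left out, so the pairs are not measured on equal terms.

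HEPACAM2 (ENSG00000188175, chr7:93188586-93226524, minus strand, GRCh38) had the widest gap above among the genes tested, 7.81, a rank that depends on the join. With 1 read in the A549 controls it lies under the lowest mean that the A549 table holds, and it is listed there with the overexpressing libraries, while genes as low in all 6 libraries of that table are unlisted. With unlisted genes set to 0, HEPACAM2 came after INSM1 (gaps of 7.76 and 8.78). It had 567, 562 and 522 CPM in the DMS454 libraries labelled CRISPR and 313, 319 and 324 CPM in those labelled control. In H1694 it had 430.0, 446 and 437 CPM in the libraries labelled CRISPR and 149, 154 and 160.0 CPM in those labelled control. Against these, the A549 controls had 0.057, 0 and 0 CPM, 1 read in all, and the H1299 controls 0.198, 0.175 and 0.115 CPM, 9 reads in all. Every small cell library lay far above every non-small cell library, and in both small cell lines the libraries labelled CRISPR lay above those labelled control, against the direction their genotype label names. The difference of the line means was 8.25 (SE 0.62) on the log2(CPM + 1) scale, with an adjusted p of 0.130 by limma on 4 line means. With the control libraries of the small cell lines alone it was 7.68, and with those labelled CRISPR alone 8.82.

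The promoter windows of HEPACAM2 and of SCG3, the gene of next widest gap, are shown as the promoters of the widest gaps above. They were searched on both strands for CAGCTG, 1 form of the E-box, the motif of basic helix-loop-helix factors. Each window runs from 250 bases before to 50 bases after the start that RefSeq gives (GRCh38.p14), and capitals mark the motif. For HEPACAM2 it is chr7:93232149-93232448, minus strand, which lies upstream of the gene bounds given above, since RefSeq and GENCODE place the start differently. For SCG3 it is chr15:51681253-51681552, plus strand.
HEPACAM2: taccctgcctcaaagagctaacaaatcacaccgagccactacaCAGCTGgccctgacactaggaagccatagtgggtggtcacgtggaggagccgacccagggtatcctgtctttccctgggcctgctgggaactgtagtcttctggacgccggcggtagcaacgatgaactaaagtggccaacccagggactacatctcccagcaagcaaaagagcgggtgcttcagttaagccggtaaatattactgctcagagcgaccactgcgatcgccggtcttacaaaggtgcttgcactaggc
SCG3: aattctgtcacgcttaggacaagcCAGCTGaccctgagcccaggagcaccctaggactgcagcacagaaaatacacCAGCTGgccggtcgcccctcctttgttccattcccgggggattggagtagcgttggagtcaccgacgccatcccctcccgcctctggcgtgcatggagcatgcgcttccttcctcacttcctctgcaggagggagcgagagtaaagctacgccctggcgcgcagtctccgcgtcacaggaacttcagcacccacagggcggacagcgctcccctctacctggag
The HEPACAM2 window holds the motif once, starting at -207 from the start site, and the SCG3 window holds it 2 times, at -226 and -174. A match is no evidence of binding: the motif was in 17.7% of all 27305 promoter windows, in 16.8% of the windows of genes tested, in 17.9% for genes above with a gap of at least 1 and in 14.4% for those below.

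Genes of the regulated secretory pathway were among those of widest gap. SCG3 (chr15:51681353-51721031, plus strand), a granin that sorts hormones into dense core granules, had a lowest, median and highest value of 227, 243 and 254 CPM in DMS454 and 192, 205 and 212 CPM in H1694. The non-small cell controls had 0, 0.116 and 0.102 CPM in A549 and 0, 0.233 and 0.0573 CPM in H1299, so the libraries of the types did not come near each other (difference 7.69 (SE 0.63), adjusted p 0.130 by limma). Chromogranin A, CHGA, the classical serum and tissue marker of neuroendocrine tumours, had 283 ± 42.9 CPM in DMS454 and 201 ± 12.3 CPM in H1694, against 1.31 ± 0.376 CPM in A549 and 0.11 ± 0.0595 CPM in H1299 (gap 6.46). PTPRN, a phosphatase-like protein of granule membranes, had 139 ± 11 CPM in DMS454 and 90.3 ± 5.19 CPM in H1694, against 0.0764 ± 0.087 CPM in A549 and 0.165 ± 0.0582 CPM in H1299 (gap 6.29). Of 27 genes of dense core granules and prohormone processing, 15 were tested, 9 had a gap of at least 1 above and 0 below, and the median difference was 3.55. Over all genes tested, 4.62% lay above and 3.32% below by such a gap, and the median difference was 0.20. CPE, which trims the ends of peptide hormones, had 361 CPM in DMS454 and 837 CPM in H1694, against 1.64 CPM in A549 and 16.4 CPM in H1299. Secretogranin SCG2 had 2177 CPM in DMS454 and 164 CPM in H1694, against 1.59 CPM in A549 and 7.9 CPM in H1299, and CHGB had 498 CPM in DMS454 and 294 CPM in H1694, against 14.8 CPM in A549 and 5.59 CPM in H1299. The 12 members outside the join include the prohormone convertase PCSK2, at 667 ± 143 CPM in DMS454 and 96 ± 2.74 CPM in H1694 and unlisted for both others. With unlisted genes set to 0, 15 of 26 tested members had such a gap above and 0 below, against 5.66% above and 2.88% below among all genes tested that way.

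RNA of several genes for hormones and amines differed between the small cell lines, and the products themselves were not measured. DDC, which makes dopamine and serotonin from their precursors, had 958 ± 64.3 CPM in DMS454 and 2.67 ± 0.879 CPM in H1694, against 0.616 ± 0.125 CPM in A549. GRP, the gastrin-releasing peptide, had 177 ± 37.9 CPM in DMS454 and 0.245 ± 0.148 CPM in H1694. The calcitonin gene CALCA had 380.3 ± 26.1 CPM in DMS454 and 0 in all libraries of H1694. GRP and CALCA are unlisted for A549 and H1299. The vesicular monoamine transporter SLC18A2 had 98.4 CPM in DMS454 and 0.0995 CPM in H1694, against 1.04 CPM in A549 and 0.107 CPM in H1299. These 4 genes were high in DMS454 and under 3 CPM in H1694, whereas the granule proteins above were high in both small cell lines.

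Synaptic vesicle genes lay above as well. SV2A, a vesicle membrane glycoprotein, had 97.4 ± 9.66 CPM in DMS454 and 241 ± 7.75 CPM in H1694, against 0.13 ± 0.0364 CPM in A549 and 0.203 ± 0.0478 CPM in H1299 (gap 6.35). Synaptophysin, SYP, another diagnostic marker, had 183 ± 7.6 CPM in DMS454 and 346 ± 13.8 CPM in H1694, against 6.7 ± 0.918 CPM in A549 and 3.95 ± 0.471 CPM in H1299 (gap 4.58). The membrane fusion protein SNAP25 had 164 CPM in DMS454 and 107 CPM in H1694, against 25.3 CPM in A549 and 3.84 CPM in H1299, and the active zone scaffold BSN had 23.1 CPM in DMS454 and 29.7 CPM in H1694, against 0.627 CPM in A549 and 1.35 CPM in H1299. AP3B2, a neuronal subunit of the vesicle adaptor complex, had 54.6 ± 2.76 CPM in DMS454 and 94.9 ± 6.26 CPM in H1694, against 0.244 ± 0.0606 CPM in A549 and 0.2 ± 0.201 CPM in H1299 (gap 5.48). Of 29 genes of the vesicle and exocytosis list, 18 were tested, and 10 had a gap of at least 1 above and 0 below (median difference 3.07). The shares over all genes tested were 4.62% above and 3.32% below. Not every member separated the types: the small GTPase RAB3B had 343 CPM in DMS454 and 11.9 CPM in H1694, against 25.8 CPM in A549 and 103 CPM in H1299, and complexin CPLX2, unlisted for H1299, had 628 ± 135 CPM in DMS454 and 790.5 ± 111 CPM in H1694, against 1206 ± 99.1 CPM in A549. For CPLX2, A549 was thus the highest of the 3 lines that list it.

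Neuronal transport, cytoskeleton and ion channel genes also held wide gaps above. The motor KIF1A, which carries dense core and synaptic vesicle precursors along axons, had 566 ± 105 CPM in DMS454 and 629.9 ± 47.3 CPM in H1694, against 3.79 ± 0.255 CPM in A549 and 0.245 ± 0.13 CPM in H1299 (gap 6.87). GNAO1, the alpha subunit of the neuronal G protein Go, had 171 ± 18.9 CPM in DMS454 and 325 ± 23.8 CPM in H1694, against 0.118 ± 0.119 CPM in A549 and 0.188 ± 0.245 CPM in H1299 (gap 7.19). The potassium channel KCNH2, known as hERG, had 235 ± 38 CPM in DMS454 and 216 ± 10.7 CPM in H1694, against 1.9 ± 0.528 CPM in A549 and 0.297 ± 0.243 CPM in H1299 (gap 6.24). CDK5R2, an activator of the neuronal kinase CDK5, had 101 CPM in DMS454 and 64.8 CPM in H1694, against 1.11 CPM in A549 and 0.113 CPM in H1299, and the guidance receptor SEMA6A had 219 CPM in DMS454 and 121 CPM in H1694, against 0.245 CPM in A549 and 2.87 CPM in H1299. Of 32 genes of neuronal cytoskeleton and guidance, 22 were tested, with 10 above by a gap of at least 1 and 0 below (median difference 3.22). Of 21 voltage-gated channels only 9 were tested, with 2 above and 0 below. For both lists, the shares of all genes tested with such a gap were 4.62% above and 3.32% below. The sodium channel SCN3A, unlisted for H1299, had 323 ± 22.7 CPM in DMS454 and 59.99 ± 3.12 CPM in H1694, against 0.324 ± 0.0845 CPM in A549. The adhesion molecule NCAM1, also called CD56, had 31.7 ± 8.7 CPM in DMS454 and 202 ± 24.5 CPM in H1694, and is unlisted for the others. The other genes among the 14 of widest gap above were RASD1 (gap 5.22), a small GTPase, RGS16 (5.18), a brake on G protein signals, and VWA5B2 (5.18).

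**Figure D2:**
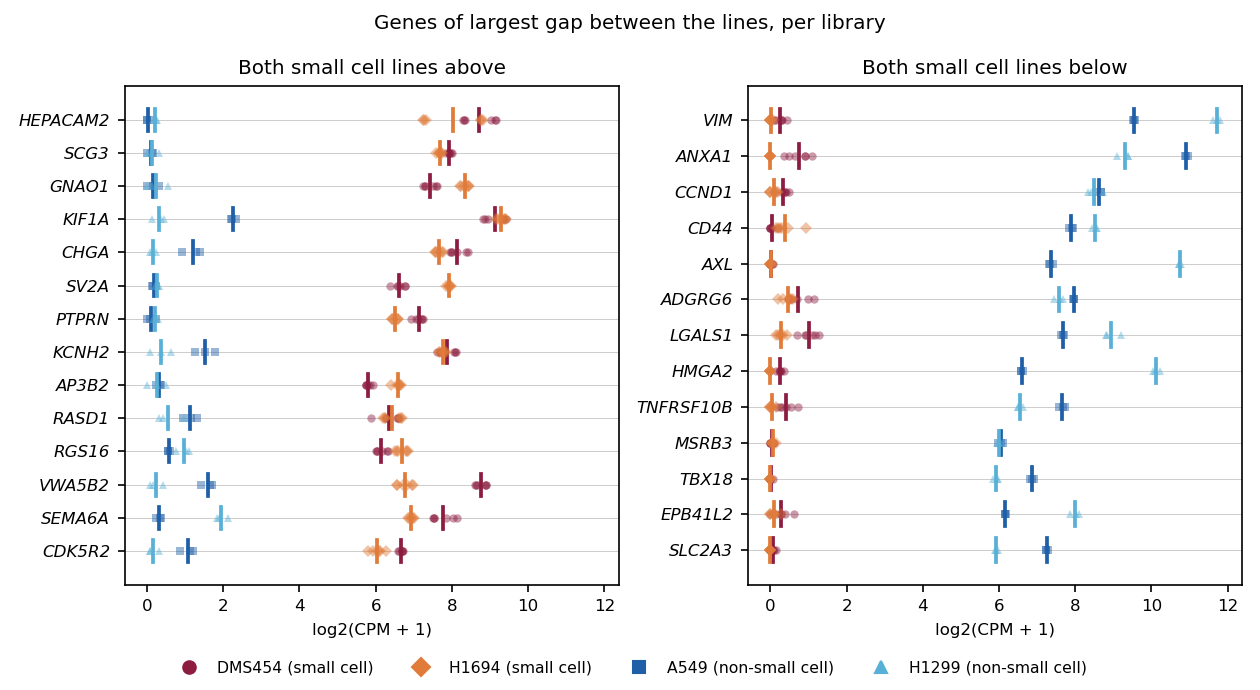
Library values, log2(CPM + 1), of the 14 genes with the widest gap above (left) and of genes with the widest gaps below (right), with points for libraries and vertical bars for line means. The small cell libraries (DMS454 and H1694) and the non-small cell controls (A549 and H1299) form separate clouds for each gene, and HEPACAM2 heads the genes above with a gap of 7.81, while VIM heads those below with 9.29.

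The lineage factor NEUROD1 separated the small cell lines from each other. It had 3.04, 4.05 and 6.21 CPM as lowest, median and highest value in DMS454 and 882, 921 and 946 CPM in H1694, against 0.198, 0.233 and 0.287 CPM in the H1299 controls, and it is unlisted for A549. H1694 thus had the profile called NEUROD1-high in the field, with all its libraries far above those of DMS454, which in turn lay above the H1299 controls. POU2F3, the factor of the tuft-like class, had 0.0253 CPM in DMS454 and 0.0403 CPM in H1694.

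Other regulators were shared. INSM1, a zinc finger factor that maintains the neuroendocrine state, had 1203 ± 40.6 CPM in DMS454 and 455 ± 40.7 CPM in H1694 and is unlisted for A549 and H1299. With unlisted genes set to 0 its gap was the widest above, as given for HEPACAM2. PROX1 had 119 ± 9.35 CPM in DMS454 and 163 ± 14.4 CPM in H1694, against 0.0912 ± 0.0876 CPM in H1299. HES6, an inhibitor of HES1 that promotes neuronal differentiation, had 295 ± 25.6 CPM in DMS454 and 156 ± 20.8 CPM in H1694, against 10.5 ± 0.336 CPM in A549 and 11.4 ± 3.68 CPM in H1299 (gap 3.69). ONECUT2 had 152 CPM in DMS454 and 35.9 CPM in H1694, against 4.58 CPM in A549 and 1.85 CPM in H1299, and TOX had 31.3 CPM in DMS454 and 10.5 CPM in H1694, against 0.271 CPM in A549 and 0.271 CPM in H1299. Of 32 subtype and neuroendocrine factors, 11 were tested, with 5 above by a gap of at least 1 and 0 below, and with unlisted genes at 0 there were 14 above of 30 tested. Over all genes tested, 4.62% lay above and 3.32% below by such a gap, and with unlisted genes at 0, 5.66% lay above. SOX2, often amplified in lung cancer, had 260.2 CPM in DMS454 and 0.975 CPM in H1694, against 34.3 CPM in A549 and 3.69 CPM in H1299, so that H1694 lay under both non-small cell lines and DMS454 above them.

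The MYC family was divided. MYCL had 23.4, 27.1 and 35.8 CPM as lowest, median and highest value in DMS454 and 4627, 4812 and 5189 CPM in H1694, against 4.28, 3.95 and 4.09 CPM in the A549 controls and 0.692, 0.582 and 0.573 CPM in the H1299 controls. H1694 therefore stood apart from all 3 other lines, and the gap of 2.48 was set by DMS454 and A549. MYC had 168 ± 15.9 CPM in DMS454 and 3.36 ± 0.999 CPM in H1694, against 117 ± 2.41 CPM in A549 and 205 ± 20.4 CPM in H1299, so that H1694, the line with the highest MYCL, had the lowest MYC. MYCN had 0.00686 ± 0.0168 CPM in DMS454 and 10.4 ± 1.23 CPM in H1694 and is unlisted for the others.

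REST, the repressor of neuronal genes, was low in both small cell lines, with 0.784 ± 0.166 CPM in DMS454 and 6.11 ± 0.576 CPM in H1694, against 32.2 ± 0.73 CPM in A549 and 42.4 ± 2.82 CPM in H1299 (gap 2.22 below). Of 12 genes of REST and its cofactors it alone had a gap of at least 1 below, and 1, the corepressor RCOR3, lay above near that limit (1.003) and fell under it with TMM. The histone deacetylases HDAC1 and HDAC2, which REST complexes use, had no gap. Neuronal splicing regulators, some of which REST represses in other cells, were tested in 18 of 26. By a gap of at least 1, 3 lay above and 1 below (with TMM, 2 and 1), against 4.62% and 3.32% of all genes tested. ELAVL3 had 3.65 CPM in DMS454 and 224 CPM in H1694, against 0.279 CPM in A549 and 0.218 CPM in H1299, and MBNL3 had 22.9 CPM in DMS454 and 109.7 CPM in H1694, against 0.16 CPM in A549 and 6.49 CPM in H1299. The factor below was RBM24, with 0.0058 CPM in DMS454 and 6.34 CPM in H1694, against 25.5 CPM in A549 and 35.7 CPM in H1299. SRRM3, which promotes neuronal microexons, had 23.8 CPM in DMS454 and 64.1 CPM in H1694, against 9.54 CPM in A549 and 1.37 CPM in H1299 and a gap of 1.23. CELF3 and ELAVL4 are unlisted for A549 and H1299. In DMS454 and H1694, CELF3 had 144 and 170.3 CPM, and ELAVL4 58.9 and 64.9 CPM. PTBP1, the general repressor of neuronal exons, had 491 CPM in DMS454 and 593 CPM in H1694, against 448 CPM in A549 and 614 CPM in H1299.

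Members of the Notch pathway went both ways. The receptor NOTCH2 had 16.7 ± 3.94 CPM in DMS454 and 29.5 ± 4.73 CPM in H1694, against 80.3 ± 4.86 CPM in A549 and 111 ± 3.91 CPM in H1299 (gap 1.43 below). The ligand DLL1 had 129 CPM in DMS454 and 8.79 CPM in H1694, against 0.225 CPM in A549 and 1.74 CPM in H1299, and the target HEY1 had 36.8 CPM in DMS454 and 53.6 CPM in H1694, against 1.16 CPM in A549 and 3.08 CPM in H1299, both above. Of 23 members 22 were tested, with 4 above (3 with TMM) and 1 below by a gap of at least 1. Among all genes tested, the shares were 4.62% above and 3.32% below. The receptor NOTCH1 had 4.38 CPM in DMS454 and 90.4 CPM in H1694, against 39.8 CPM in A549 and 3.9 CPM in H1299. The target HES1 had 12.4 CPM in DMS454 and 4.41 CPM in H1694, against 16 CPM in A549 and 3.37 CPM in H1299, and neither NOTCH1 nor HES1 had a gap. DLL3, the inhibitory ligand to which small cell cancer drugs are directed, had 104 ± 5.95 CPM in DMS454 and 25.8 ± 4.67 CPM in H1694, against 16.1 ± 0.707 CPM in A549 and 17.4 ± 3.45 CPM in H1299, a gap of only 0.54.

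**Figure D3:**
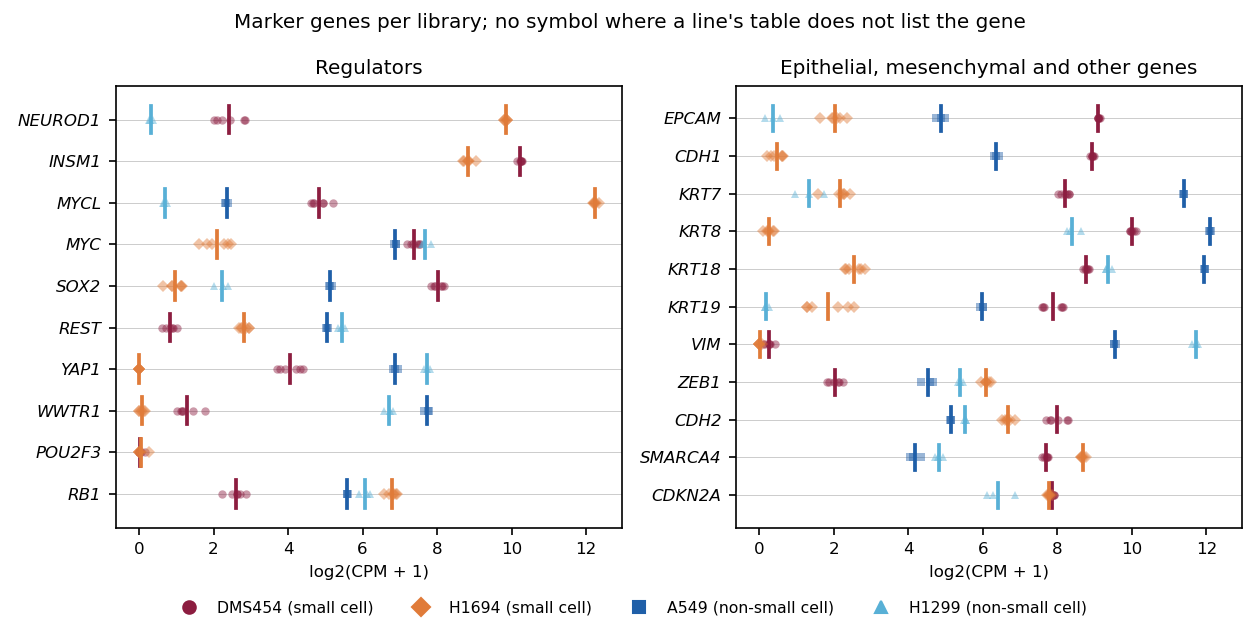
Library values, log2(CPM + 1), of lineage regulators (left) and of epithelial, mesenchymal and other genes (right), with points for libraries, vertical bars for line means and no symbol where a line's table does not list the gene. NEUROD1 is low in DMS454 (4.43 CPM) and high in H1694 (916 CPM), INSM1 is high in both, and the keratins are high in DMS454, A549 and for KRT8 and KRT18 in H1299, but low in H1694.

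VIM, ANXA1 and CCND1, all of the mesenchymal transition list, held the widest gaps among the genes tested, below, although CCND1 is a G1 gene. Not every mesenchymal gene lay below. Of 4 mesenchyme markers, 2 reached 10 CPM in DMS454 and 3 in H1694, against 4 in A549 and 4 in H1299. N-cadherin CDH2, 1 of these markers, lay above and is described with the junction genes. Vimentin, VIM (chr10:17228259-17237593, plus strand), the intermediate filament of mesenchymal cells, had 0.066, 0.204 and 0.348 CPM as lowest, median and highest value in DMS454 and 0, 0 and 0.0514 CPM in H1694, where 1 read was found in 6 libraries. The non-small cell controls had 731, 759.6 and 739.9 CPM in A549 and 3535, 3403 and 3153 CPM in H1299 (difference -10.50 (SE 0.82), gap 9.29, adjusted p 0.130 by limma). Annexin A1, ANXA1 (chr9:73151757-73170393, plus strand), a membrane-binding regulator of inflammation, had 0.288, 0.721 and 1.15 CPM in DMS454 and 0 in all 6 libraries of H1694, against 1978, 1899 and 1903 CPM in A549 and 551, 672 and 669 CPM in H1299 (gap 8.56). CCND1, cyclin D1, which drives the G1 phase by inactivating the RB protein, had 0.272 ± 0.112 CPM in DMS454 and 0.0599 ± 0.0675 CPM in H1694, against 396 ± 18.7 CPM in A549 and 361 ± 52.5 CPM in H1299 (gap 8.15). CD44, the receptor of hyaluronan, had 0.0295 ± 0.0558 CPM in DMS454 and 0.328 ± 0.306 CPM in H1694, against 236 ± 8.05 CPM in A549 and 365 ± 15.3 CPM in H1299 (gap 7.51). In all 4 genes the small cell libraries were near 0 and the groups were far apart. Of 22 genes of mesenchymal transition, 20 were tested, 13 had a gap of at least 1 below and 1 above, the transcription factor SNAI1, and the median difference was -3.44. Over all genes tested, 3.32% lay below and 4.62% above by such a gap, and the median difference was 0.20. ZEB1, a repressor of epithelial genes, did not follow: it had 3.12 CPM in DMS454 and 67.6 CPM in H1694, against 22.3 CPM in A549 and 40.9 CPM in H1299.

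The promoter windows of VIM and ANXA1 are printed as the counterparts of those above, again from 250 bases before to 50 after the RefSeq start (GRCh38.p14). They were searched for CAGCTG and for the AP-1 motif TGANTCA on both strands, and neither holds a match, so all letters are in lower case. The window of VIM is chr10:17227991-17228290, plus strand, and that of ANXA1 is chr9:73151615-73151914, plus strand.
VIM: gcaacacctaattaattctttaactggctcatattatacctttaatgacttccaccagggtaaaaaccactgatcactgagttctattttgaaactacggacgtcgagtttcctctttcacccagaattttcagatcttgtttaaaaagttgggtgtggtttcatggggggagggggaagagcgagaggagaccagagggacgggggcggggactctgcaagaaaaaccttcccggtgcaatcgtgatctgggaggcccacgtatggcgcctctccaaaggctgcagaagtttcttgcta
ANXA1: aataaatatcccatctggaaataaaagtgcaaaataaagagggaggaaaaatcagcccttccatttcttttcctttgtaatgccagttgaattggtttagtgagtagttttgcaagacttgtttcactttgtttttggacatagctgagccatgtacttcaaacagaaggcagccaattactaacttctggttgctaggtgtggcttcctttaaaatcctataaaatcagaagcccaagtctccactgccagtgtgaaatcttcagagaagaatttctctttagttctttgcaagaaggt
The AP-1 motif was in 7.76% of all windows and in 4.41% of those of genes tested. It was in 3.22% of 559 windows of genes above with a gap of at least 1 and in 8.96% of 402 windows of those below. FOSL1, a subunit of AP-1, had 0.134 ± 0.115 CPM in DMS454 and 0.124 ± 0.0869 CPM in H1694, against 15.4 ± 0.596 CPM in A549 and 537 ± 87.6 CPM in H1299. These shares are descriptions, and the windows also differ in base composition, with a median GC content of 69.0% for genes above, 66.3% for genes below and 65.3% for all genes tested.

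The Hippo coactivators were low in both small cell lines. YAP1 had 11.9, 15.7 and 20.3 CPM as lowest, median and highest value in DMS454 and 0 in all 6 libraries of H1694, against 116, 123 and 112 CPM in A549 and 201, 223 and 209 CPM in H1299 (gap 2.83). WWTR1, which encodes TAZ, had 1.47 ± 0.514 CPM in DMS454 and 0.0507 ± 0.0491 CPM in H1694, against 211 ± 9.12 CPM in A549 and 103 ± 8.63 CPM in H1299 (gap 5.42). Their targets lay below too: CCN1 had 0.595 CPM in DMS454 and 3.85 CPM in H1694, against 61.6 CPM in A549 and 996 CPM in H1299, and CCN2 had 7.3 CPM in DMS454 and 0.0062 CPM in H1694, against 28.6 CPM in A549 and 260.4 CPM in H1299. The receptor tyrosine kinase AXL had 0.0131 ± 0.0204 CPM in DMS454 and 0.0062 ± 0.0152 CPM in H1694, against 164 ± 5.61 CPM in A549 and 1712 ± 39.7 CPM in H1299 (gap 7.35). Of 30 genes of YAP and TAZ, their cofactors and targets, 28 were tested, 15 had a gap of at least 1 below and 0 above, and the median difference was -3.63. By such a gap, 3.32% of all genes tested lay below and 4.62% above. TEAD1, the DNA-binding partner of both coactivators, was present everywhere and had no gap, with 205 CPM in DMS454 and 111 CPM in H1694, against 195 CPM in A549 and 123 CPM in H1299.

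Genes of adhesion to the matrix lay below as well. Of 41 focal adhesion and contractile actin genes, 37 were tested, with 13 below by a gap of at least 1 (16 with TMM) and 0 above. CAVIN1, which builds caveolae, had 0.177 CPM in DMS454 and 14.4 CPM in H1694, against 421 CPM in A549 and 394 CPM in H1299. Caveolin, CAV1, had 27.2 CPM in DMS454 and 0.487 CPM in H1694, against 338 CPM in A549 and 175 CPM in H1299. Tropomyosin TPM2 had 5.95 ± 0.867 CPM in DMS454 and 11.7 ± 2.58 CPM in H1694, against 241 ± 2.18 CPM in A549 and 321 ± 19.6 CPM in H1299 (gap 4.28). The large scaffold filamin, FLNA, had 299 CPM in DMS454 and 1183 CPM in H1694, against 1306 CPM in A549 and 1133 CPM in H1299 and no gap. Of 22 integrins 18 were tested, with 4 below and 1 above by at least 1, against 3.32% and 4.62% of all genes tested. The fibronectin receptor chain ITGA5 had 0.173 ± 0.0928 CPM in DMS454 and 0.279 ± 0.107 CPM in H1694, against 73.9 ± 3.28 CPM in A549 and 67.1 ± 6.47 CPM in H1299 (gap 5.74). The laminin receptor chain ITGA3 had 36 CPM in DMS454 and 33.7 CPM in H1694, against 301 CPM in A549 and 509 CPM in H1299, while the member above, ITGA9, had 8.15 CPM in DMS454 and 32.7 CPM in H1694, against 0.0838 CPM in A549 and 0.0967 CPM in H1299.

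Matrix proteins and the enzymes that remodel them followed. Of 40 matrix proteins 34 were tested, with 10 below by a gap of at least 1 and 0 above (median difference -2.03). The shares over all genes tested were 3.32% below and 4.62% above. The laminin chain LAMB2 had 0.907 ± 0.245 CPM in DMS454 and 3.26 ± 0.825 CPM in H1694, against 133 ± 3.43 CPM in A549 and 53.6 ± 6.51 CPM in H1299. TGFBI, a matrix protein induced by TGF-beta, had 6.96 CPM in DMS454 and 0.0345 CPM in H1694, against 486 CPM in A549 and 78.8 CPM in H1299. Others did not separate the types: LAMB1 had 42.3 CPM in DMS454 and 355 CPM in H1694, against 460.0 CPM in A549 and 80.5 CPM in H1299. Of 31 matrix proteases and inhibitors 28 were tested, with 9 below and 0 above by at least 1, against the same shares of all genes. The urokinase gene PLAU had 0.162 CPM in DMS454 and 8.53 CPM in H1694, against 74.5 CPM in A549 and 550.0 CPM in H1299, and the metalloproteinase inhibitor TIMP1 had 2.5 CPM in DMS454 and 0.0765 CPM in H1694, against 78 CPM in A549 and 154 CPM in H1299. Further genes of widest gap below were the adhesion receptor ADGRG6 (gap 6.85), the galectin LGALS1 (6.67), the chromatin protein HMGA2 (6.34), the death receptor TNFRSF10B (6.14), the methionine sulfoxide reductase MSRB3 (5.93), the developmental factor TBX18 (5.91), the membrane skeleton protein EPB41L2 (5.88) and the glucose transporter SLC2A3 (5.87).

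**Figure D4:**
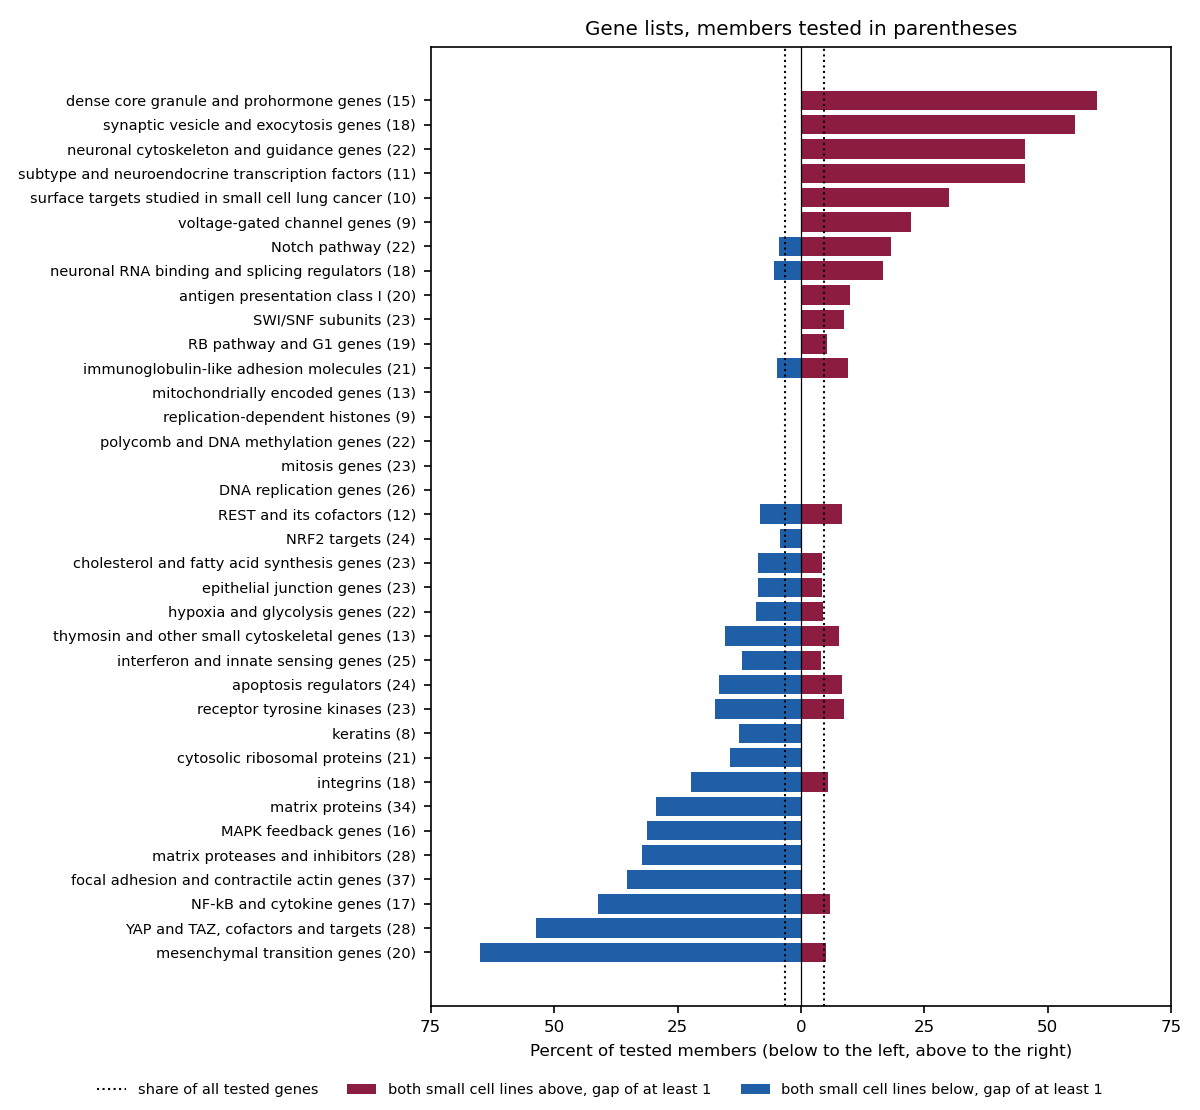
Percent of tested members of each gene list with both small cell lines above (right, dark red) or below (left, blue) both non-small cell lines by a gap of at least 1, for lists with at least 8 tested members, whose number stands in parentheses. Dotted lines mark the shares among all genes tested, 4.62% above and 3.32% below, and granule genes (9 of 15) and mesenchymal genes (13 of 20) stand at the ends.

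Epithelial genes divided the small cell lines. EPCAM, an epithelial adhesion molecule, had 550.2 ± 11.2 CPM in DMS454 and 3.14 ± 0.677 CPM in H1694, against 28.3 ± 2.5 CPM in A549 and 0.292 ± 0.176 CPM in H1299. Keratin KRT8 had 1030.4 ± 50.8 CPM in DMS454 and 0.203 ± 0.0882 CPM in H1694, against 4392 ± 81.8 CPM in A549 and 341 ± 48.7 CPM in H1299, and its partner KRT18 had 439.8 ± 18.6 CPM in DMS454 and 4.91 ± 0.953 CPM in H1694, against 3958 ± 56.4 CPM in A549 and 659 ± 46.7 CPM in H1299. E-cadherin, CDH1, unlisted for H1299, had 489 ± 13.2 CPM in DMS454 and 0.392 ± 0.17 CPM in H1694, against 81.1 ± 3.82 CPM in A549. In each of these 4 genes DMS454 and A549 lay above H1694, which had little keratin or E-cadherin RNA and, as given above, hardly any vimentin RNA. Of 12 keratins 8 were tested, with 1 below, KRT80, and 0 above. KRT81, whose reads may be shared with close paralogs, had 0.274 CPM in DMS454 and 1.02 CPM in H1694, against 5327 CPM in A549 and 0.033 CPM in H1299. Of 32 junction genes 23 were tested, with 2 below, CLDN1 and CTNNA1, and 1 above, N-cadherin CDH2, which had 255 CPM in DMS454 and 102 CPM in H1694, against 34.3 CPM in A549 and 45.4 CPM in H1299 and had a gap under 1 with TMM. Among 29 immunoglobulin-like adhesion molecules, the family of HEPACAM2, 21 were tested, with 2 above, HEPACAM2 and NFASC, and 1 below, NECTIN2. The keratin, junction and immunoglobulin-like counts are by a gap of at least 1, which 4.62% of all genes tested had above and 3.32% below. Neurofascin, NFASC, had 74.1 CPM in DMS454 and 79.2 CPM in H1694, against 0.505 CPM in A549 and 7.32 CPM in H1299, and NECTIN2, a ligand of immune receptors, had 41.1 CPM in DMS454 and 37.7 CPM in H1694, against 241 CPM in A549 and 265 CPM in H1299. CEACAM5, unlisted for H1299, was another gene of DMS454, with 789 ± 149.5 CPM in DMS454 and 0.0062 ± 0.0152 CPM in H1694, against 0.325 ± 0.144 CPM in A549.

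Loss of RB1 is a hallmark of small cell tumours, but the gene's RNA differed between these 2 lines. RB1 had 5.1 ± 0.874 CPM in DMS454 and 111 ± 9.84 CPM in H1694, against 47.3 ± 0.248 CPM in A549 and 66.8 ± 6.7 CPM in H1299, so that H1694 was the highest of the 4 lines. CDKN2A, which encodes the inhibitor p16, had 233 ± 7.32 CPM in DMS454 and 219.5 ± 7.71 CPM in H1694, against 86.6 ± 25.1 CPM in H1299, and is unlisted for A549. CDKN2C, the related inhibitor p18, had 327 ± 41.9 CPM in DMS454 and 312 ± 10.6 CPM in H1694, against 41.8 ± 1.17 CPM in A549 and 39.8 ± 5.51 CPM in H1299 and was the member of the RB and G1 list with a gap of at least 1 (1 above and 0 below of 19 tested). CCND1, a G1 gene counted with the mesenchymal list, stands outside that count, with its gap of 8.15 below. E2F1 had 155 CPM in DMS454 and 172 CPM in H1694, against 77.7 CPM in A549 and 57.1 CPM in H1299 and a gap of 0.99, just short of 1. Genes of DNA replication (26 tested) and mitosis (23 tested) had 0 members with a gap of at least 1 in either direction. With TMM, 1 member of the RB and G1 list and 1 mitosis gene lay below by at least 1. Over all genes tested, 4.62% lay above and 3.32% below by at least 1 (with TMM, 3.46% and 4.33%). MCM7, of the replicative helicase, had 574 CPM in DMS454 and 573 CPM in H1694, against 472 CPM in A549 and 883 CPM in H1299, and TOP2A, a topoisomerase of dividing cells, had 561 CPM in DMS454 and 1068 CPM in H1694, against 706 CPM in A549 and 332 CPM in H1299.

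Genes of cell death and receptor signalling held several wide gaps. BCL2, the inhibitor of mitochondrial apoptosis, had 74.5 ± 5.54 CPM in DMS454 and 38.7 ± 3.56 CPM in H1694, against 2.96 ± 0.275 CPM in A549 and 6.07 ± 0.527 CPM in H1299 (gap 2.49 above). Several death receptors, though not all, lay below. TNFRSF10B had 0.333 ± 0.194 CPM in DMS454 and 0.0288 ± 0.0401 CPM in H1694, against 201 ± 10.2 CPM in A549 and 92.5 ± 4.76 CPM in H1299. FAS had 0.525 CPM in DMS454 and 0.533 CPM in H1694, against 11.3 CPM in A549 and 26.3 CPM in H1299. TNFRSF1A had 7.38 CPM in DMS454 and 0.0528 CPM in H1694, against 625 CPM in A549 and 178 CPM in H1299. TNFRSF21 had no gap, with libraries at 74.8 to 103 CPM in DMS454 and 14.9 to 22.3 CPM in H1694, against 108 to 122 CPM in A549 and 7.74 to 10.7 CPM in H1299. Of 24 genes tested from the list of apoptosis regulators, 2 lay above and 4 below by a gap of at least 1. Among all genes tested, the shares were 4.62% above and 3.32% below. The list holds BCL2 but not TNFRSF10B or FAS, and those below include TNFRSF1A, BIRC3 and TNFRSF10A. Of 33 receptor tyrosine kinases 23 were tested, with 2 above and 4 below by at least 1, against the same shares of all genes. EGFR had 0.0567 CPM in DMS454 and 28.8 CPM in H1694, against 101 CPM in A549 and 118 CPM in H1299, and EPHA2 had 0.146 CPM in DMS454 and 1.22 CPM in H1694, against 118 CPM in A549 and 240.3 CPM in H1299, both below. MET had 178 CPM in DMS454 and 71.9 CPM in H1694, against 193 CPM in A549 and 102 CPM in H1299 and no gap. Genes that report MAPK output were tested in 16 of 17, with 5 below and 0 above (median difference -2.01), among them LIF, at 0.719 CPM in DMS454 and 0.692 CPM in H1694, against 108 CPM in A549 and 13.3 CPM in H1299.

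Of 19 surface and other targets studied in small cell cancer 10 were tested, and 3 had a gap of at least 1 above, 1 with TMM. Over all genes tested the share above was 4.62%, and 3.46% with TMM. The potassium channel KCNK3 had 23.5 CPM in DMS454 and 93.1 CPM in H1694, against 5.25 CPM in A549 and 0.515 CPM in H1299. PARP1, the DNA damage sensor, had 537 ± 22.8 CPM in DMS454 and 855 ± 32 CPM in H1694, against 261 ± 1.42 CPM in A549 and 197 ± 9.2 CPM in H1299 (gap 1.04), and CD24, whose reads may be shared with its copies, had 706 CPM in DMS454 and 276 CPM in H1694, against 134 CPM in A549 and 0.272 CPM in H1299. The last 2 of these had a gap under 1 with TMM. SEZ6, unlisted for A549 and H1299, had 35.3 ± 10.2 CPM in DMS454 and 245 ± 7.57 CPM in H1694. The somatostatin receptor SSTR2 had 0.332 CPM in DMS454 and 83.4 CPM in H1694, against 0.201 CPM in A549 and 0.913 CPM in H1299.

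Among chromatin regulators, 2 SWI/SNF genes stood out and the polycomb genes lay closer together. SMARCA4, the ATPase of SWI/SNF complexes, whose loss is known in A549 and H1299, had 206 ± 8.63 CPM in DMS454 and 410.4 ± 14 CPM in H1694, against 17.1 ± 1.85 CPM in A549 and 27.3 ± 2.05 CPM in H1299 (gap 2.87). SS18L1, a subunit of the neuronal form of the complex, had 71.6 CPM in DMS454 and 71.9 CPM in H1694, against 19.99 CPM in A549 and 14.3 CPM in H1299, and ACTL6B, another neuronal subunit unlisted for A549 and H1299, had 15.8 ± 1.39 CPM in DMS454 and 71.9 ± 3.56 CPM in H1694. Of 23 SWI/SNF subunits tested, 10 lay above and 0 below with any gap (with TMM, 6 and 1), and 2 above by at least 1. Of 22 polycomb and DNA methylation genes 8 lay above and 0 below (with TMM, 8 and 1), but 0 by a gap of at least 1. Among all genes tested, 26.1% lay above and 14.9% below with any gap (with TMM, 19.4% and 20.9%). By at least 1, 4.62% of all genes lay above. EZH2, the polycomb methyltransferase, had 123 CPM in DMS454 and 183 CPM in H1694, against 66.9 CPM in A549 and 88.6 CPM in H1299.

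Immune genes were described by 3 lists, whose difference was not tested. Of 20 genes of class I antigen presentation tested, 2 lay above by at least 1, NLRC5 and ERAP2, and 0 below, against 4.62% above and 3.32% below among all genes tested. NLRC5, a transactivator of class I genes, had 11.1 CPM in DMS454 and 12.4 CPM in H1694, against 2.44 CPM in A549 and 1.68 CPM in H1299. HLA-B, whose reads can be shared with other HLA genes, had 180.1 CPM in DMS454 and 9.62 CPM in H1694, against 5.66 CPM in A549 and 157 CPM in H1299, and B2M had 384 CPM in DMS454 and 179.8 CPM in H1694, against 171 CPM in A549 and 352 CPM in H1299, so neither separated the types. Of 25 interferon and innate sensing genes tested, 1 lay above and 3 below, among them the DNA sensor CGAS, with 3.67 CPM in DMS454 and 0.124 CPM in H1694, against 12.9 CPM in A549 and 56.7 CPM in H1299. Of 17 genes of NF-kB and cytokine signalling tested, 7 lay below by at least 1 and 1 above (0 with TMM). OSMR, the oncostatin M receptor, had 0.885 ± 0.289 CPM in DMS454 and 0.235 ± 0.137 CPM in H1694, against 126 ± 4.02 CPM in A549 and 66.4 ± 3.72 CPM in H1299 (gap 5.17), and NFKB2 had 15.1 CPM in DMS454 and 8.39 CPM in H1694, against 59.3 CPM in A549 and 142 CPM in H1299.

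Metabolic lists had 1 or 2 members a direction with a gap of at least 1, or 0, against 4.62% above and 3.32% below among all genes. Of 24 targets of NRF2, the oxidant response factor known to be overactive in A549, 1 lay below by at least 1, the haem oxygenase HMOX1, with 4.68 CPM in DMS454 and 1.44 CPM in H1694, against 114 CPM in A549 and 31.9 CPM in H1299, and 0 above. ALDH1A1 had 1704 CPM in DMS454 and 0 CPM in H1694, against 7385 CPM in A549 and 0.0659 CPM in H1299, high in DMS454 and A549 alone. Cholesterol and fatty acid synthesis had 1 above and 2 below of 23 tested, with the LDL receptor at 18.2 CPM in DMS454 and 33.7 CPM in H1694, against 114 CPM in A549 and 276 CPM in H1299. Hypoxia and glycolysis genes had 1 above and 2 below of 22 tested. Among them SLC2A3, which encodes the neuronal glucose transporter GLUT3, lay below, with 0.0421 ± 0.0422 CPM in DMS454 and 0 in all 6 libraries of H1694, against 151 ± 3.96 CPM in A549 and 59.8 ± 1.78 CPM in H1299.

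Ribosomal protein genes lay mostly below, by small amounts. Of 21 cytosolic ribosomal protein genes tested, whose reads can be shared with pseudogenes, 14 lay below and 1 above with any gap (18 and 0 with TMM), and 3 lay below by at least 1, with a median difference of -0.77. RPL4 had 1153 CPM in DMS454 and 853 CPM in H1694, against 2455 CPM in A549 and 2399 CPM in H1299. Of the 13 mitochondrially encoded genes 8 lay below and 0 above (12 and 0 with TMM), 0 of them by at least 1. These sides rest on line means, and libraries can overlap. MT-CO1 ran from 7335 to 12779 CPM in DMS454 and 8036 to 16268 CPM in H1694, against 13541 to 18366 CPM in A549 and 11903 to 18164 CPM in H1299. Among all genes tested, 14.9% lay below and 26.1% above with any gap (with TMM, 20.9% and 19.4%). By a gap of at least 1, 3.32% lay below and 4.62% above. Replication-dependent histones, 9 of them tested, had 0 with such a gap. Among 13 small cytoskeletal genes, 2 S100 proteins lay below, S100A10 and S100A11, and MARCKSL1 above. Thymosin TMSB10 had 15.6 CPM in DMS454 and 739.6 CPM in H1694, against 1653 CPM in A549 and 1471 CPM in H1299. Lists of airway epithelium (4 tested, 1 above, LPCAT1), liver-type plasma proteins (2 tested), tuft cell markers (2 tested) and leukocyte markers (2 tested) had no other member with a gap of at least 1, and fibroblast and endothelium markers had none tested. SERPINA1, a plasma protease inhibitor, had 308 CPM in DMS454 and 1.89 CPM in H1694, against 0.199 CPM in A549 and 9.59 CPM in H1299.

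Position in the genome was uneven. On chromosome 13, 9.96% of 271 tested genes lay above by a gap of at least 1 and 1.11% below. On chromosome 22 the shares were 8.91% above and 2.48% below, and on chromosome 1 they were 7.15% and 1.25%. Chromosome 3 was the reverse, with 2.79% of 861 genes above and 7.32% below. Among gene families by name, 189 of 466 tested zinc finger genes with the prefix ZNF lay above with any gap and 26 below (27 and 3 by at least 1). Their median difference was 0.59 with CPM and 0.39 with TMM, against 0.20 and -0.01 over all genes tested. Of all genes tested, 26.1% lay above and 14.9% below with any gap, and 4.62% and 3.32% by at least 1.

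**Figure D5:**
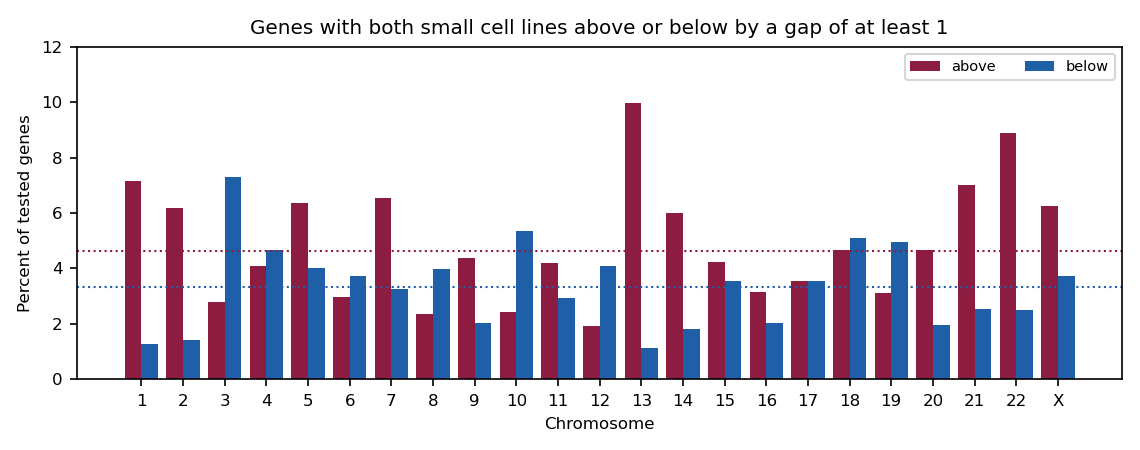
Percent of tested genes per chromosome with both small cell lines above (dark red) or below (blue) both non-small cell lines by a gap of at least 1, for chromosomes with at least 100 tested genes. Dotted lines are the shares over all genes, 4.62% above and 3.32% below, and chromosomes 13, 22 and 1 stand highest above, chromosome 3 highest below.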

How the data were processed

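Libraries were made with a stranded Illumina TruSeq kit from column-purified, DNase-treated RNA, per the labels' protocols, with 3 independent biological replicates per group. The submitters' processing notes name CASAVA, FastQC, Trim Galore, STAR and DESeq2 and the build hg38; the sources used here give no versions, counter or annotation, or whether counting used strand, so overlapping and antisense genes, and genes with near-identical copies, are uncertain. The deposited values are a signal per gene, read counts that the authors divided by 1 size factor per library within each line's table, as the values show: 100% of values in each library were whole multiples of 1 step within 0.01, which gave back whole reads.

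From these, CPM over the 18538 identifiers shared by all 4 tables, 99.97% of them named, was averaged as log2(CPM + 1) within each arm and then over arms to 1 value per line. The pseudocount of 1 understates differences of low genes. Genes with at least 1 CPM in at least 1 line (16199) entered limma 3.58.1 with trend and robust settings (R 4.3.3), Benjamini-Hochberg adjustment and a two-sided threshold of 0.05; 2339 shared identifiers did not. edgeR 4.0.16 and DESeq2 1.42.0 ran on reads summed per line as alternatives. The limma code was tested on simulated data. Libraries of 1 line are not replicates of a tumour type, and p-values rest on 2 lines a side. The fits with the line as a random block are the exception, since libraries within a line count there too.

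Gene bounds are from GENCODE v29 (GRCh38) and promoter windows from RefSeq (GRCh38.p14), neither used for counting here. The members, gene lists and comparisons were chosen with earlier results of these data known. Named genes were HEPACAM2 and, per direction, the 14 genes of widest gap with at least 10 CPM in both lines of the higher side, without clone, antisense, readthrough and pseudogene names. The rule also asked for a limma call, which no gene had, so that condition was dropped after values were seen. The other genes named per list were chosen after their values were seen. A few genes and 1 list that these rules reach are not reported here, in the text or the figures.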

Additional observations from a re-analysis of the deposited data

Results flagged for a closer look

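Identifiers outside the join carried signal in the small cell lines. Of those not listed for A549 or H1299, 166 had at least 10 CPM in both DMS454 and H1694, and 52 of them are listed for neither non-small cell line. INSM1, PCSK2, CELF3, ELAVL4, NCAM1 and SEZ6, described above, belong to the 52. The counts of genes above therefore leave out genes that could not be compared.

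The overexpressing libraries of A549 and H1299 are the other data outside the comparison. HEPACAM2 averaged 304 ± 4.30 CPM (SD, n = 3) in the overexpressing A549 libraries, against 0.057, 0 and 0 CPM in the A549 controls. In the overexpressing H1299 libraries it averaged 1503 ± 99.6 CPM (SD, n = 3), against 0.198, 0.175 and 0.115 CPM in the H1299 controls. Dixon's test for a library far from the rest, run on 31 sets of library values, marked 0, where chance alone marks about 1 in 20.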

How the results depend on the processing

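The difference of HEPACAM2 and of each other gene of widest gap kept its sign under every alternative run. These genes were chosen for their wide gaps, so a kept sign is little of a check. The balance of the counts turned under TMM: 4226 genes above and 2412 below with CPM were 3148 and 3396 with TMM. With a gap of at least 1, 749 and 537 were 561 and 702, and the median difference of 0.20 was -0.01. The number of genes called was the least stable value: 0 by limma on line means and by edgeR, 415 higher and 501 lower by DESeq2 on summed reads, and 382 higher and 382 lower by limma with the line as a random block. With the replicate number added to that fit as a block, 301 were higher and 313 lower. The numbers did not pair the samples, since the correlation of same-numbered libraries across groups ran from -0.147 to 0.275 and 7 of 45 were over 0.1. Both block fits took 1 value per line and replicate number, so libraries of a line count toward their p-values. Those p-values, for HEPACAM2 too, therefore do not measure the spread between lines of a tumour type. HEPACAM2 differed by 8.25 by limma on line means, by 11.82 with DESeq2 (adjusted p 2.9e-22), by 8.25 with the random block (adjusted p 1.55e-08) and by 8.25 with the replicate block (adjusted p 4.3e-07); its other adjusted p ran from 0.0646 to 0.766. With the overexpressing libraries added it differed by 3.61 (adjusted p 0.231). Leaving out 1 library gave 8.23 to 8.26 for HEPACAM2, 4196 to 4251 genes above, 2396 to 2446 below, and, with a gap of at least 1, 739 to 764 above and 531 to 548 below. Leaving out a line loosens the rule: without A549, DMS454, H1299 and H1694 in turn, 6352, 6669, 6573 and 7351 genes lay above and 4283, 4990, 3969 and 4482 below, and with a gap of at least 1, 1656, 2066, 1569 and 2402 above and 1306, 1409, 1295 and 1320 below. HEPACAM2 then differed by 7.91 to 8.59. A pseudocount of 5 left 461 genes above and 344 below by at least 1, and its construction shrinks the differences of low genes. The other alternatives moved each of these counts by less than 1.5 times. Signals of a few reads limit the low side of the widest gaps, and genes left out of the tables of A549 and H1299 limit the high side.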

Other observations

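The 2 arms of a small cell line differed little in the genes with a gap of at least 1. The median absolute difference of CRISPR against control libraries was 0.14 in DMS454 and 0.12 in H1694 on the log2(CPM + 1) scale, and 11 of these 1286 genes in DMS454 and 6 in H1694 differed by at least 1 between the arms. The same values were not computed over all genes tested, and these genes were chosen on means over both arms. The counts therefore do not show whether such genes differ from others in this respect. HEPACAM2 is a gene with higher values in the libraries labelled CRISPR in both lines.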
